A study of Caenorhabditis elegans with 2 samples.

Results

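Endocytosis, Rab and Arf genes were examined in whole Caenorhabditis elegans hermaphrodites raised with a grape seed compound. The set holds 84 of the 17118 genes that the array names singly. It was chosen by gene name and not by any measured value: symbols of the classes rab, arf, arl, rme, apa, apb, apm, aps, snx and vps, with chc-1, clic-1, dyn-1 and ced-1 added and rme-2 and rab-3 left out. Those genes rest on 123 probe sets.

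The pOPC7 group was 1 array of wild-type N2 hermaphrodites, started as L1 larvae and kept until the L4 larval stage, over 48 hours, on plates holding pOPC7 at 2 µg/mL, which is a proanthocyanidin trimer gallate isolated from Vitis vinifera seeds. The control group was 1 array of N2 hermaphrodites of the same stage raised for 48 hours on plates without it. Both were fed Escherichia coli OP50, and the parents of both were kept at 20 °C. The study concerned how grape seed extracts affect lipids in this nematode.

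Endocytosis brings membrane, nutrients and receptors into cells in vesicles. Clathrin and its adaptors shape the vesicle, dynamin pinches it off, and small GTPases of the Rab and Arf families mark each compartment and recruit the proteins that move, tether and fuse it. Sorting nexins, retromer and the ESCRT complexes then decide whether cargo is recycled or sent to the lysosome. In the worm these steps are known from yolk uptake by oocytes, recycling in the intestine, engulfment of dying cells and scavenging by coelomocytes.

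With 1 array in each group no comparison could be tested, and no p-value was computed. All values below are deposited RMA values on the log2 scale, read as log2 from their range, or differences between them as pOPC7 minus control. A gene was called measured where its mean over both arrays was at least 6, which left 70 of the 84 members and 8059 of all genes. Differences of 0.58 and 0.26 correspond to 1.5-fold and 1.2-fold. The only error available was the disagreement between probe sets of 1 gene, with an SD of 0.24 over 2001 measured genes with several probe sets and 0.26 over the 32 such members. It is given with ± after a difference as that SD (0.24) divided by the square root of the gene's number of probe sets. It does not cover the spread between cultures. In whole animals, fewer cells of a type and less RNA per cell cannot be told apart.

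The endocytosis, Rab and Arf genes were nearly level between the arrays. Their median difference was 0.01 (SD over genes 0.17, n = 70 measured members), against 0.04 (SD 0.20) over all measured genes. Of the measured members 37 of 70 lay above 0, or 52.9%, against 57.8% of measured genes. None was higher by 1.5-fold, where 0.732% of measured genes were, and 1 was lower by 1.5-fold, chc-1, where 0.211% were. At 1.2-fold 1 member was higher (1.43%, against 11.6% of measured genes) and 6 were lower (8.57%, against 6.06%). The higher one was vps-18, and the lower ones were chc-1, arl-8, vps-51, arl-1, arl-3 and vps-13A. The remaining 63 members, 90.0% of those measured, differed by less than 1.2-fold, against 82.3% of all measured genes. A difference of more than 2 times its own error was seen in 2 members (2.86%), chc-1 and arl-8, against 3.36% of measured genes.

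**Figure D1:**
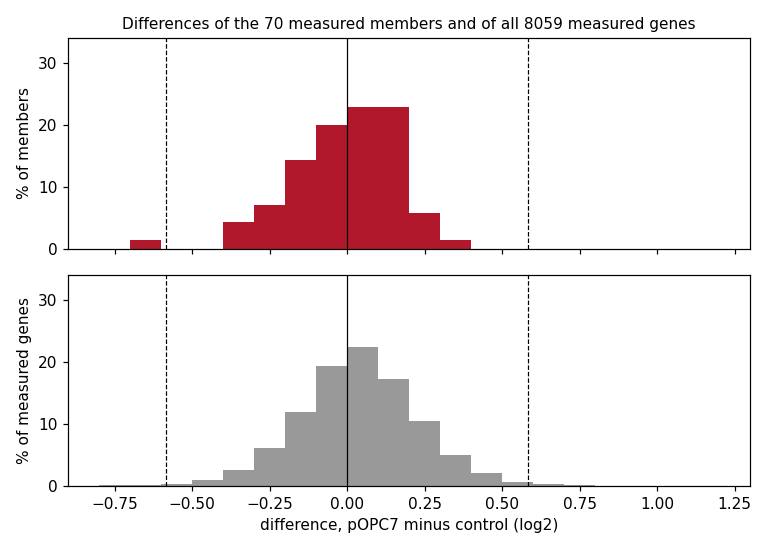
Distribution of the difference between the pOPC7 and control arrays (log2, bins of width 0.1) as a percentage of the 70 measured members (top, red) and of all 8059 measured genes (bottom, grey). Dashed lines mark 1.5-fold; 1 member, chc-1, lies beyond the lower line and none beyond the upper one.

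The difference of a gene depended in part on the probe sets that measured it. Probe sets whose identifiers start with 171 to 175, called low-numbered here, read lower on the pOPC7 array than the others. The dividing number was chosen from these same values, so the counts that follow describe the arrays and do not test the division. Among the measured members 30 low-numbered probe sets had a median difference of -0.22, with 6 (20.0%) above 0. The 78 high-numbered ones had 0.07, with 53 (67.9%) above 0. Over all measured genes 37.3% of low-numbered probe sets (median -0.07) and 63.2% of high-numbered ones (median 0.06) were above 0. In 23 members both kinds were present, and in 19 of them (82.6%) the low-numbered probe sets lay below the high-numbered ones of the same gene, with a median gap of -0.38. Over all 1521 measured genes with both kinds this was so in 74.4%, with a median gap of -0.19. The exceptions among the members were vps-20, rab-6.1, apb-1 and snx-14. The gap was widest for ced-1 (-0.65), rme-1 (-0.63) and arl-1 (-0.61). The probe sets lay on both sides of 0 in 19 of the 32 measured members that had more than 1. The matching share over all measured genes is not given here. For most measured members with a low-numbered probe set the value without it, or the range over the probe sets, is given below. What sets the 2 kinds of probe set apart was not tested.

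**Figure D2:**
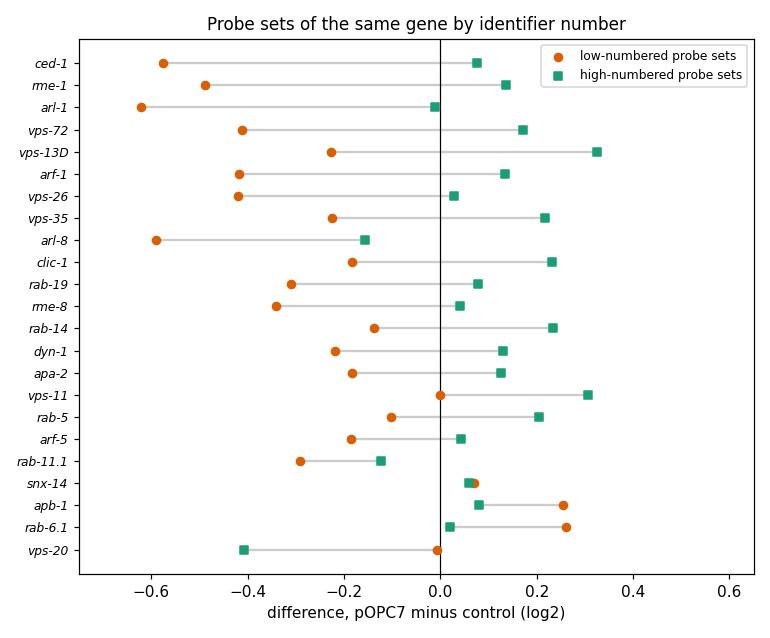
Difference between the pOPC7 and control arrays (log2) for the 23 measured members with both kinds of probe set, 1 row per gene. Orange circles are low-numbered and green squares high-numbered probe sets, averaged where there were several; in 19 of the 23 genes the circle lies left of the square.

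Among the measured members clathrin itself differed most. The heavy chain gene chc-1, which encodes the scaffold of the coat, had a value of 8.70 on the pOPC7 array and 9.32 on the control array. The difference was -0.62 ± 0.24, or 0.649-fold, on a single high-numbered probe set, of the type that the array design marks as able to match more than 1 transcript. Its partner, the light chain gene clic-1, was level, at 8.64 with pOPC7 and 8.69 in the control (-0.04 ± 0.14). The 3 probe sets of clic-1 ran from -0.33 to 0.23, and the high-numbered one alone gave 0.23. dyn-1, the dynamin that cuts the vesicle free, was level as well, with 8.34 on the pOPC7 array and 8.38 on the control array (-0.04 ± 0.17), and 0.13 without its low-numbered probe set.

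No adaptor subunit gene, whose products link clathrin to cargo and membrane, was lower by 1.2-fold, where 6.06% of measured genes were. For AP-2, the adaptor of the plasma membrane, the sigma subunit gene aps-2 had 8.52 with pOPC7 and 8.30 in the control (0.22 ± 0.24). The alpha subunit gene apa-2 had 6.66 with pOPC7 and 6.69 in the control (-0.03 ± 0.17), with probe sets at -0.18 and 0.13. apb-1, whose beta subunit serves both AP-1 and AP-2 in the worm, was 8.39 on the pOPC7 array and 8.23 on the control array (0.17 ± 0.17), and both of its probe sets were above 0. For AP-1, which acts at the Golgi and endosomes, aps-1 differed by 0.15 and apm-1 by -0.07. For AP-3, which routes cargo to lysosome-related organelles, apb-3 differed by -0.07, and apm-3 was just below the measured level at 6.07 with pOPC7 and 5.69 in the control (0.38). Of the 9 measured coat, adaptor and dynamin genes 3 were above 0 and the median was -0.04. Without low-numbered probe sets 6 of 9 were above 0 and the median was 0.13, so the sign of the group's median depended on them, while chc-1 has none. Over all measured genes 57.8% were above 0 with low-numbered probe sets (median 0.04) and 63.6% without them (median 0.06).

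ced-1, the receptor with which cells recognise and engulf dying neighbours, was 6.07 with pOPC7 and 6.32 in the control, a difference of -0.25 ± 0.17. Its low-numbered probe set gave -0.58 and the other 0.08, so the sign depended on the probe set. The rme genes were found in screens for failed yolk uptake. rme-1, an EHD-family ATPase of recycling endosomes, was 8.83 on the pOPC7 array and 9.005 on the control array (-0.18 ± 0.17), and rme-8, a DnaJ-domain protein of endosomes, was 7.67 with pOPC7 and 7.82 in the control (-0.15 ± 0.17). Without their low-numbered probe sets the differences were 0.14 for rme-1 and 0.04 for rme-8. rme-4 and rme-6, a regulator that acts with RAB-35 and an activator of RAB-5, were below the measured level. Their differences were -0.31 and 0.26.

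Rab GTPases as a family were level. The 15 measured rab genes had a median difference of 0.05, 9 were above 0, and all lay within 1.2-fold, from -0.18 to 0.22. Over all measured genes 57.8% were above 0 and 82.3% lay within 1.2-fold. For the early endosome, rab-5, the main organiser of that compartment, was 7.99 with pOPC7 and 7.94 in the control (0.05 ± 0.17), with probe sets at -0.10 and 0.20. rab-21 was 7.86 with pOPC7 and 7.64 in the control (0.22 ± 0.24), the largest difference of a measured rab gene. rab-7, which marks late endosomes and lysosomes, was 8.28 on the pOPC7 array and 8.21 on the control array (0.06 ± 0.17), with probe sets at -0.04 and 0.17. The difference of each of the 3 genes was below its error.

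Of the measured rab genes of recycling and surface delivery, rab-8 and rab-11.1 were the lowest, and rab-11.2, below the measured level, was lower still at 3.88 with pOPC7 and 4.33 in the control (-0.45). rab-11.1, of recycling endosomes, had 10.37 on the pOPC7 array and 10.55 on the control array (-0.18 ± 0.14), and its 3 probe sets lay between -0.29 and -0.04, with a mean of -0.12 without the low-numbered one. rab-8, which works in secretion, had 7.38 with pOPC7 and 7.56 in the control (-0.18 ± 0.14), but its 3 probe sets were all low-numbered and ran from -0.47 to 0.04. rab-10, needed for basolateral recycling in the worm intestine, differed by 0.08 (9.01 with pOPC7, 8.93 in the control), and rab-35, needed for recycling of the yolk receptor, by -0.04 (7.85 with pOPC7, 7.89 in the control). The median of the 4 measured genes was -0.11, and -0.02 with the low-to-high gap within genes removed.

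The rab genes of the endoplasmic reticulum (ER) and Golgi spanned -0.16 to 0.15 with a median of 0.07 over 8, and 5 were above 0 (4 with the trend on level removed). The shares over all measured genes were 57.8%, and 50.6% with that trend removed. rab-1, which acts in transport out of the ER, was 9.56 with pOPC7 and 9.71 in the control, and its 2 probe sets gave nearly the same difference (-0.16 and -0.15). rab-19 was 8.23 on the pOPC7 array and 8.35 on the control array (-0.12 ± 0.17), with probe sets at -0.31 and 0.08, and rab-39 differed by -0.03. On the other side of 0 lay rab-33 and rab-30, at 0.15 and 0.11. rab-14, which acts between the Golgi and endosomes, was 7.10 with pOPC7 and 6.99 in the control (0.11 ± 0.14), with probe sets from -0.14 to 0.29 and a difference of 0.23 without the low-numbered one. The Golgi genes rab-6.1 (8.78 with pOPC7, 8.68 in the control) and rab-6.2 (6.097 with pOPC7, 6.05 in the control) differed by 0.10 and 0.04, and both had a probe set on either side of 0. Without its low-numbered probe set rab-6.1 was at 0.02. The gene unc-108, which encodes the worm's Rab2 and falls outside the naming rule, was 8.39 on the pOPC7 array and 8.65 on the control array (-0.26 over 3 probe sets).

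Arf and Arl genes are relatives of the Rabs that recruit coats and effectors. arf-1, whose product recruits the COPI coat at the Golgi, was 9.66 with pOPC7 and 9.90 in the control (-0.23 ± 0.14). Its 2 low-numbered probe sets gave -0.49 and -0.35, and the high-numbered one 0.13. arf-5 differed by -0.07 ± 0.17 (11.44 with pOPC7, 11.52 in the control) and arf-6, which acts at the plasma membrane and in recycling, by 0.15 ± 0.24 (8.76 with pOPC7, 8.62 in the control). All 3 were above 0 without low-numbered probe sets, whereas 1 was with them. Over all measured genes the shares above 0 were 63.6% without them and 57.8% with them.

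The arl genes had the lowest median of the groups with 3 or more measured members, at -0.29 over 4. arl-8, which directs lysosome and synaptic vesicle transport, was 7.05 on the pOPC7 array and 7.42 on the control array (-0.37 ± 0.17). Both of its probe sets were below 0. The low-numbered one, which may match several transcripts, gave -0.59 and the other -0.16. Without the low-numbered one the difference was below the error of a single probe set (0.24), so its excess over 2 times its error rested on that one. arl-1, a Golgi GTPase, was 7.22 with pOPC7 and 7.54 in the control (-0.32 ± 0.17), but its high-numbered probe set gave -0.01. arl-3, which works in cilia, was 6.32 with pOPC7 and 6.59 in the control (-0.27 ± 0.24) on 1 high-numbered probe set, and arl-5 was level (0.03). Without low-numbered probe sets the median of the 4 was -0.08. The cilium genes arl-13 and arl-6 were below the measured level on both arrays. arl-13 had the largest difference of any member, at 5.22 with pOPC7 and 4.47 in the control (0.75, on 1 low-numbered probe set), and arl-6 had 2.85 with pOPC7 and 3.24 in the control (-0.39).

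**Figure D3:**
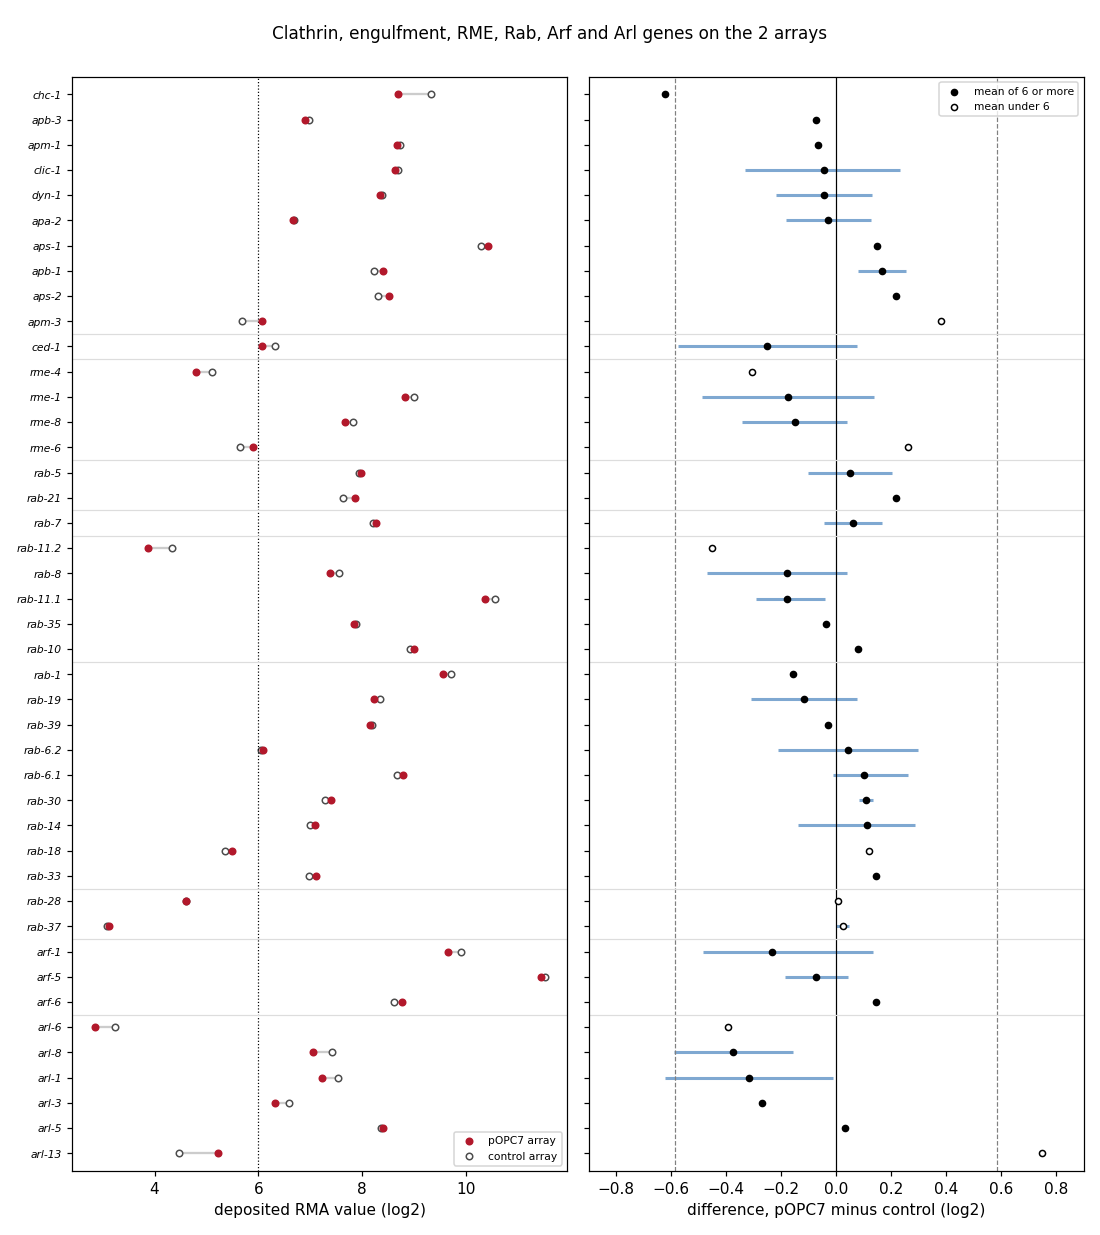
Deposited RMA values (left, log2; red, pOPC7 array; open, control array; dotted line, measured level of 6) and their difference (right, log2, pOPC7 minus control) for clathrin, adaptor, dynamin, ced-1, rme, rab, arf and arl genes, with grey lines between functional groups. Blue bars span the probe sets of a gene, open points are below the measured level and dashed lines mark 1.5-fold; chc-1 and, below the measured level, arl-13 lie beyond them, and many bars cross 0.

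Sorting nexins and retromer retrieve cargo from endosomes to the Golgi or the surface. Their 10 measured genes were centred on 0, with a median of 0.01, 5 above 0 and a range of -0.20 to 0.19. Of the retromer core, vps-35 was 7.80 on both arrays, but as the mean of probe sets at -0.23 and 0.22. vps-26 was 6.76 with pOPC7 and 6.95 in the control (-0.20 ± 0.17), with 0.03 for its high-numbered probe set, and vps-29 was 8.70 on the pOPC7 array and 8.57 on the control array (0.13 ± 0.24). snx-1 (7.07 with pOPC7, 7.05 in the control, 0.03) and snx-6 (-0.01), sorting nexins that work with retromer, hardly differed. snx-3, which in the worm retrieves the Wnt carrier MIG-14, was 10.32 with pOPC7 and 10.41 in the control (-0.08). snx-13 was highest, at 7.21 with pOPC7 and 7.02 in the control (0.19 ± 0.17), and snx-27 and snx-17 lay at 0.03 and -0.02. snx-14 was 6.12 with pOPC7 and 6.05 in the control, with both probe sets above 0 (0.06 and 0.07).

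The HOPS and CORVET genes were the functional group of 3 or more measured genes whose members all had 1 sign. These complexes tether endosomes to each other and to lysosomes before fusion. All 7 measured genes were above 0, with a median of 0.15 and a range of 0.06 to 0.31, and so were both members below the measured level, vps-33.1 (0.31) and vps-41 (0.29). Over all measured genes 57.8% were above 0, and 59.9% of all genes with no limit on level. Of the high-numbered probe sets of measured genes, the only kind for all 7 but vps-11, 63.2% were above 0 (median 0.06). vps-18, of the core shared by the complexes, was 7.64 on the pOPC7 array and 7.33 on the control array (0.31 ± 0.24). vps-16, also of the core, was 8.75 with pOPC7 and 8.53 in the control (0.22 ± 0.24), and vps-11 was 6.27 with pOPC7 and 6.11 in the control (0.15 ± 0.17), and 0.31 without its low-numbered probe set.

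Of the more specialised tether genes, vps-33.2 was 6.53 on the pOPC7 array and 6.33 on the control array (0.20 ± 0.17). vps-8, of CORVET, was 6.45 with pOPC7 and 6.30 in the control (0.15 ± 0.24). vps-39, of HOPS, differed by 0.06 ± 0.24. vps-45, a Sec1/Munc18-type regulator of endosome fusion listed with this group, differed by 0.10 ± 0.24. In each of the 11 other settings tried all measured members of the group were above 0, with medians from 0.09 to 0.21. However, no probe set of the group lay below 0. Settings that choose among probe sets or change the level limit therefore could not turn a sign. Taking off the median of measured genes or the trend on level could, and there the lowest gene, vps-39, came to 0.02 or 0.01. Among the group's 7 measured genes vps-11 alone had a low-numbered probe set, at 0.00. The differences of vps-18 and vps-33.2 were larger than their errors, and those of the other 5 were not.

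The ESCRT genes, whose products sort ubiquitinated cargo into multivesicular bodies, were close to level. Their 11 measured genes had a median of 0.01 (SD 0.10), 7 were above 0 and the range was -0.21 to 0.11. Taking off the median of measured genes left 4 of 11 above 0. The shares above 0 over all measured genes were 57.8%, and 49.99% with that median taken off. vps-20, an ESCRT-III subunit, was lowest at 8.85 with pOPC7 and 9.06 in the control (-0.21 ± 0.17), and here the high-numbered probe set was the lower one (-0.41 against -0.01). vps-4, the ATPase that takes ESCRT-III apart, was highest at 7.80 with pOPC7 and 7.68 in the control (0.11 ± 0.17), with both probe sets above 0. The ESCRT-I genes vps-28 (-0.12) and vps-37 (0.08) differed in sign, and of ESCRT-II vps-36 (-0.09), vps-22 (0.01) and vps-25 (0.02) were near 0. The ESCRT-III genes vps-2 (0.08), vps-32.1 (0.08), vps-24 (-0.07) and vps-60 (0.00) were also near 0, vps-2 on low-numbered probe sets alone.

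vps-51 departed from its partners in the GARP and EARP complexes, which tether vesicles from endosomes at the Golgi and at recycling endosomes. It was 7.89 on the pOPC7 array and 8.22 on the control array (-0.34 ± 0.24, 1 high-numbered probe set that may match several transcripts). On probe sets of the same type, vps-53 (6.83 with pOPC7, 6.66 in the control, 0.16) and vps-54 (0.10) were above 0. vps-52 (0.14) and vps-50 (0.12) were below the measured level. The lipid kinase gene vps-34, whose product makes the phosphatidylinositol 3-phosphate of endosomes and autophagosomes, was 6.97 with pOPC7 and 6.87 in the control (0.10 ± 0.24), and its regulatory partner gene vps-15 was 7.21 with pOPC7 and 7.39 in the control (-0.18 ± 0.24). vps-13A was 10.53 with pOPC7 and 10.80 in the control (-0.27 ± 0.24), on 1 probe set that may match several transcripts. vps-13D was 7.30 with pOPC7 and 7.25 in the control (0.05), as the mean of probe sets at -0.23 and 0.33. Both encode lipid transfer proteins at membrane contacts. vps-72 was 6.61 on the pOPC7 array and 6.73 on the control array (-0.12), with probe sets at -0.41 and 0.17. It shares the name, but its yeast counterpart is a subunit of a chromatin remodelling complex.

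**Figure D4:**
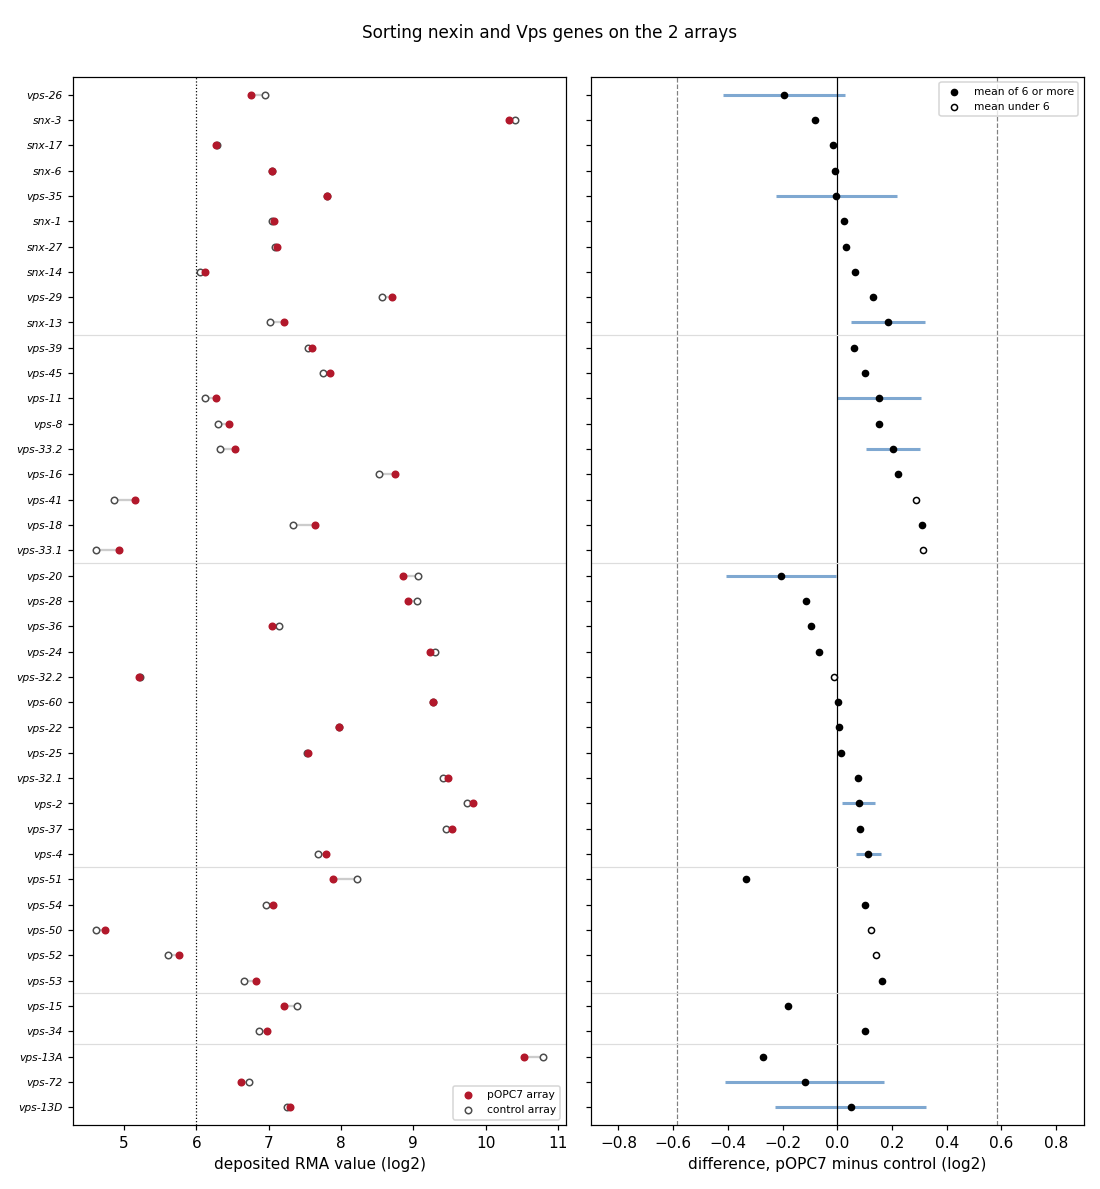
Deposited RMA values (left, log2; red, pOPC7 array; open, control array; dotted line, measured level of 6) and their difference (right, log2, pOPC7 minus control) for sorting nexin and Vps genes, with grey lines between functional groups. Blue bars span the probe sets of a gene and open points are below the measured level; the HOPS and CORVET genes, from vps-39 to vps-33.1, all lie right of 0.

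The 14 members below the measured level spread more widely, with an SD of 0.32 and a range of -0.45 for rab-11.2 to 0.75 for arl-13. Of these 10 (71.4%) were above 0, where 59.9% of all genes were with no limit on level. The share and SD over all genes below the measured level are not given here. The members nearest below the limit were apm-3 (mean 5.88), rme-6 (5.77), vps-52 (5.68) and rab-18 (5.43), and those nearest above it were rab-6.2 (6.08), snx-14 (6.08), vps-11 (6.19) and ced-1 (6.197). Just below it, rme-6 was 5.90 with pOPC7 and 5.64 in the control, vps-52 was 5.75 with pOPC7 and 5.61 in the control, and rab-18 was 5.49 with pOPC7 and 5.37 in the control, so all had the higher value with pOPC7. rab-28, rab-37 and vps-32.2 were low on both arrays and differed by less than 0.03. The 3 probe sets annotated to a member together with another entry were left out, and their differences were 0.12 (arl-7 with warf-1), 0.13 (vps-41 with another gene) and 0.22 (rme-4 listed more than once).

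Level and number of probe sets went with the differences of members as they did over all genes. Members with a mean from 6 to 8 had a median difference of 0.03 (n = 39), those from 8 to 10 had -0.01 (n = 26) and the 5 above 10 had -0.08, against 0.06, 0.03 and -0.01 over all measured genes in these bands. The 38 members with 1 probe set had a median of 0.03 with 23 (60.5%) above 0, and the 32 with several had -0.04 with 14 (43.8%) above 0. Over all measured genes these medians were 0.06 and -0.03, and the shares above 0 were 62.2% and 44.6%.

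Other genes of the same pathways, listed from general knowledge and not by the naming rule, were no more uniform. Of 20 measured regulators of Rab proteins 13 were above 0 (median 0.07), 2 were higher by 1.2-fold and 1 lower. Over all measured genes 57.8% were above 0, 11.6% were higher by 1.2-fold and 6.06% lower. The largest differences among these regulators were those of the GTPase-activating protein genes tbc-1 (6.86 with pOPC7, 6.47 in the control, 0.40) and tbc-20 (-0.31). Of 18 measured Arf regulators and effectors 7 were above 0 (median -0.04, and 0.07 without low-numbered probe sets), with the COPI genes cope-1 (0.37) and copz-1 (0.27), unc-119 (0.28) and bris-1 (-0.32) at the extremes. The 18 measured endocytic adaptor and uncoating genes had a median of 0.05 with 11 above 0. The highest was chat-1 (0.29, 1 probe set). The lowest were fcho-1 and amph-1, each with 1 low-numbered probe set of 2. fcho-1, whose product starts clathrin-coated pits, was 6.9994 with pOPC7 and 7.33 in the control (-0.34, with probe sets at -0.43 and -0.24), and amph-1 differed by -0.27 with probe sets at -0.71 and 0.18. dpy-23, the AP-2 mu subunit gene, differed by -0.01.

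ced-6, the adaptor gene that acts directly after CED-1 in engulfment, was 6.64 on the pOPC7 array and 7.21 on the control array. Its difference of -0.57 fell just short of 1.5-fold, and both of its probe sets were below 0 (-0.71 and -0.43), 1 of them low-numbered. ced-7, the ABC transporter gene of the same pathway, differed by -0.18 (probe sets at -0.42 and 0.05) and ced-10, the Rac gene, by 0.08 (probe sets from -0.17 to 0.36). Of 14 measured engulfment genes 5 were above 0 (median -0.09), 1 was higher by 1.2-fold and 3 lower. The higher one was nuc-1, a lysosomal nuclease gene, with 8.85 with pOPC7 and 8.48 in the control (0.37). Over all measured genes 57.8% were above 0, 11.6% were higher by 1.2-fold and 6.06% lower.

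Exocyst and endosomal SNARE genes had a median of 0.10 with 14 of 20 above 0, led by sec-15 (0.39), with syx-18 lowest (-0.34). For this list and the next 2, the share above 0 over all measured genes was 57.8%, with a median of 0.04. Lysosomal genes had a median of 0.16 with 6 of 10 above 0, and nuc-1 (which both lists hold), clh-6 (0.26), spin-1 (0.22) and lmp-1 (0.21) were highest. The ESCRT partners numbered 9, with a median of -0.04 and 4 above 0. Among them chmp-7 was 7.65 on the pOPC7 array and 7.17 on the control array (0.48, 1 probe set), and mvb-12, of ESCRT-I, was 6.47 with pOPC7 and 6.83 in the control (-0.35). No gene of these lists reached 1.5-fold. Few measured genes did, with 0.732% higher and 0.211% lower by that much.

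**Figure D5:**
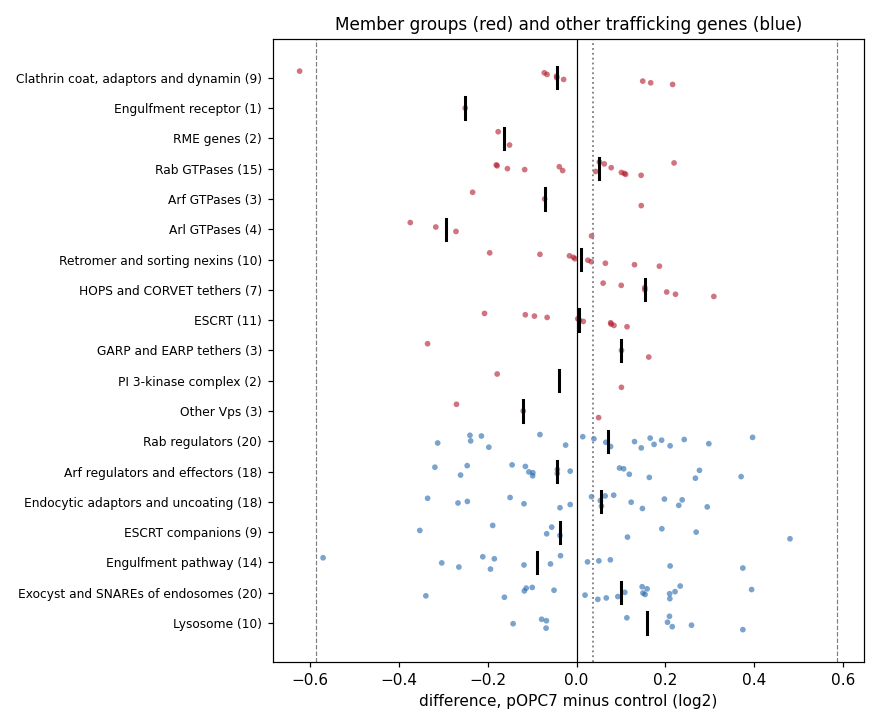
Difference between the pOPC7 and control arrays (log2) for measured genes of each functional group of members (red) and of other trafficking lists (blue), with the number of genes in brackets. Each point is a gene, black bars are medians, the dotted line is the median of all measured genes (0.04) and dashed lines mark 1.5-fold; chc-1 is the point beyond them.

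Markers of tissues in which endocytosis is studied gave the following values. Over all measured genes 57.8% were above 0 (median 0.04), and 43.7% of those with a mean of 10 or more (median -0.01). The oocyte and adult list had 1 of 8 measured genes above 0 (median -0.15), and the medians of its levels were 9.54 with pOPC7 and 9.81 in the control. The list includes the yolk receptor gene rme-2 at -0.22. Hypodermal markers had 4 of 6 above 0 (median 0.17), from lin-26 at -0.32 to nhr-23 at 0.50. Sperm markers had 4 of 7 above 0 (median 0.01), from fer-1 at -0.36 and spe-4 at -0.30 to gsp-3 at 0.17. Of the others, intestinal markers had 4 of 5 above 0 (median 0.01) and germline markers 3 of 7 (-0.02). Body wall muscle markers had 1 of 5 (-0.02) and neuronal markers 2 of 4 (-0.01). The coelomocyte markers cup-4, unc-122 and lgc-26 were below the measured level on both arrays, as were all 6 male markers, in samples labelled hermaphrodite. The part of these tissues in the members' differences was not tested. As a sign of RNA quality, the gap between 3' and 5' control probe sets differed between the arrays by -0.13 in actin, -0.07 in Gapdh and 0.04 in ubiquitin probe sets, and its part was not tested either.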

How the data were processed

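RNA of whole L4 larvae was measured on Affymetrix-type expression arrays, 1 for pOPC7 and 1 for control. Per the labels' protocols worms were broken with beads in Trizol, and 200 ng of RNA was amplified and labelled with biotin. Per the submitters' processing notes, the authors made the deposited log2 values with RMA, which corrects background, normalises by quantiles and summarises probes by median polish. The log2 scale was read from their range (1.78 to 13.90). The version of RMA is not given in the sources used here, nor is whether a column averages several hybridisations. Column medians were 5.99 for pOPC7 and 5.94 for control.

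Of 22625 probe sets 20766 had 1 gene symbol in the platform annotation, 887 had several and 972 had none. Probe sets that name a single gene were averaged to 1 value for that gene. Members, functional groups, lists, the level limit of 6 and the fold thresholds were chosen with earlier results of these data known. All members may be named. Values on both arrays are given for the 10 measured members with the largest difference in each direction, for a list of well-known members, for those with probe sets of opposite sign and for the 4 nearest the limit on each side. Genes of other lists are among the 4 with the largest absolute difference, and dpy-23, ced-7 and ced-10 were added after their values were seen. A name in that list, arf-1.2, matched no symbol. No test was possible with 1 array in each group, and that number limits the precision. Other settings were limits on level (5, 7, none, or the brighter array at 6), centring, removal of a loess trend (span 0.3), leaving out probe sets of several transcripts, and the brightest or the median probe set. Leaving out low-numbered probe sets, and removing the within-gene gap of -0.19 from them, were chosen after seeing the data. The code was tested on simulated data. Python 3.11.15, pandas 2.3.3, numpy 2.4.6, statsmodels 0.14.6 and matplotlib 3.10.9 were used. No genome positions or sequences were used here.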

Additional observations from a re-analysis of the deposited data

How the results depend on the processing

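No paired analysis was possible because each group had 1 array, and no replicate could be left out. Of 316 values of counts and medians under other settings, 275 stayed within 1.5 times the count, or within the probe-set SD divided by the square root of the number of genes for medians, and 41 did not. The cause was not tested. For all measured members the median was -0.0271 after centring, -0.0333 with the loess trend removed and 0.0756 without low-numbered probe sets. Over all measured genes these medians were 0.0000, 0.0022 and 0.0619. Without probe sets of several transcripts 21 members lay above 0 and 0 were lower by 1.5-fold, since chc-1 has no other probe set and 43 members were left. With no limit on level 1 member, arl-13, was higher by 1.5-fold. Members higher by 1.2-fold numbered 3 with a mean of at least 5, 5 with no limit, 2 with the brighter array at 6, 0 with the loess trend removed, 5 with the brightest probe set, 3 without low-numbered probe sets and 2 with the within-gene gap removed.

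The coat, adaptor and dynamin median was 0.11 without probe sets of several transcripts, 0.13 without low-numbered ones and 0.0655 with the gap removed. With the brightest probe set the median was 0.0756 for ced-1, 0.13 for arf, -0.0844 for arl and -0.27 for other Vps genes, 0.0493 for Arf regulators, 0.15 for endocytic adaptors and 0.0694 for ESCRT companions. Without low-numbered probe sets it was 0.0756 for ced-1, 0.0882 for rme, 0.13 for arf, -0.0844 for arl and 0.17 for other Vps genes, 0.0729 for Arf regulators and 0.0659 for ESCRT companions. With the gap removed it was 0.0238 for Arf regulators, 0.0574 for ESCRT companions and 0.0102 for engulfment genes. Without probe sets of several transcripts it was -0.42 for rme, -0.20 for engulfment, 0.0190 for exocyst and SNARE and 0.0776 for lysosome genes. With a mean of at least 7 it was -0.12 for GARP and EARP, 0.0139 for Rab regulators and -0.0058 for engulfment genes, and with the loess trend removed 0.0066 for Rab regulators. For the 48 members chosen to be described in full, 34 of 318 values under other settings changed sign, in 19 genes. None of these was chc-1, but it has 1 probe set, so the settings that choose among probe sets could not change its sign.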
